A study of Drosophila melanogaster with 2 samples.

Results

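The genes described here are 10 regulators, translocon components and stress genes of the endoplasmic reticulum (ER), among 13968 protein-coding genes on the main chromosomes. They were chosen by name: the secretory regulator CrebA, the stress factors Xbp1, crc and Atf6, the stress sensors Ire1 and PEK, the translocon genes TRAM, Sec61alpha and Sec61beta, and the chaperone gene Hsc70-3. All 10 were matched to the annotation. Binding was measured by chromatin immunoprecipitation and sequencing (ChIP-seq) in whole Drosophila melanogaster embryos aged 0 to 24 hours. The embryos came from a transgenic strain with an insertion that expresses the transcription factor dimm fused to eGFP, and the fusion was pulled down through its GFP tag. There was 1 group with 2 biological replicates and no second genotype or treatment. Whether the strain also kept its untagged dimm gene, and what drove the fusion, is not given in the sources used here. All embryonic tissues were mixed in the sample. No control library was analysed here, so no value below measures how far a signal depends on dimm. The files hold peaks and no reads, so the depth of the libraries is unknown.

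Proteins bound for secretion enter the ER through the Sec61 channel, and chaperones inside the ER, of which Hsc70-3 (the fly BiP) is the best known, help them fold. When unfolded proteins build up, the sensors Ire1 and PEK start the unfolded protein response. Ire1 splices the messenger of Xbp1, PEK phosphorylates a translation initiation factor and so raises translation of crc (the fly ATF4), and in mammals ATF6 is cut from the membrane and enters the nucleus. CrebA is known as a direct activator of secretory pathway genes in the embryonic salivary gland. dimm is a basic helix-loop-helix factor known for raising secretory capacity in peptidergic neuroendocrine cells, and factors of that family bind E-boxes, CANNTG.

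A gene was called bound when a peak summit lay in its annotated span or in the 1 kb upstream of it. By this rule 4 of the 10 genes were bound in the conservative list, a list from both replicates that the authors marked conservative, where 11.2% of all protein-coding genes were bound. The 4 were TRAM, Sec61alpha, Xbp1 and Ire1. Each of the 4 summits was at most 500 bp from a start site of its gene, and with that narrower window the count was again 4, against 6.92% of all protein-coding genes. The same 4 genes were bound in the list not marked conservative (11.6% of all protein-coding genes) and with 2 kb upstream (12.4%). With the span alone TRAM was left (5.78%), and with the stronger 50% of regions TRAM and Sec61alpha (6.39%). The members were not drawn at random, and they were chosen with earlier results of these data known. The shares therefore stand side by side and no test was made.

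The sequences at 2 of the bound genes and at the strongest unlisted candidate show what lay under the summits. The Ire1 region is printed up to the start of its divergent neighbour Mrm2, with the letters of GGTCACACT in capitals (here on the minus strand, as AGTGTGACC). It also holds ACGTG, as well as the stress element part CCACG and the letters of CCAAT, none of them in capitals there. ACGTG and CCACG overlap there, on opposite strands, and are not separate sites. In the Sec61alpha region the capitals are ACGTG, the core of a CRE-like element (read here as CACGT), and the 1 E-box (CAAATG, read here as CATTTG). At CrebA the capitals are CCAAT, read here as ATTGG. All are on the plus strand of dm6, with bases taken from the RefSeq Release 6 genome. The Ire1 sequence is chr3R:19861310-19861609, the Sec61alpha sequence is chr2L:6480578-6480877 and the CrebA sequence is chr3L:15534791-15534891.
Ire1: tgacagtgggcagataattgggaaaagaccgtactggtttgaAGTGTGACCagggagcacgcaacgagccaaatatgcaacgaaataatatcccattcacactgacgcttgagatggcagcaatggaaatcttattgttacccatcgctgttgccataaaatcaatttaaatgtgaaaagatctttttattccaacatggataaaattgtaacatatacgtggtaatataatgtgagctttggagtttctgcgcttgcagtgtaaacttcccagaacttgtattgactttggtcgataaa
Sec61alpha: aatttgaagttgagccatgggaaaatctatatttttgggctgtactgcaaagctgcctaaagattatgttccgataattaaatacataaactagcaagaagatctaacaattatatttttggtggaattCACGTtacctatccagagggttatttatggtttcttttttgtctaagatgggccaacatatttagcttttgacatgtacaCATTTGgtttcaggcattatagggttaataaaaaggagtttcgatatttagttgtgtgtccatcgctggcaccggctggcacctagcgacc
CrebA: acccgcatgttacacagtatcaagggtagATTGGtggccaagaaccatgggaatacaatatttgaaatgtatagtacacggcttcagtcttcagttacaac

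No E-box lay within 50 bp of the summit at any of the 4 bound genes. Over the whole conservative list, 33.2% of 1739 merged regions had at least 1 E-box that near, as did 43.7% of windows of the same length at annotated start sites of protein-coding genes. Within 150 bp of the summit, a distance added after the sequences had been seen, TRAM had an E-box CACCTG with its centre 128 bp from the summit and Sec61alpha had the CAAATG 60 bp from it, while Xbp1 and Ire1 had none. Within that distance 76.5% of all regions had an E-box. Both strands were searched, and absence means only that these letters are not in the window.

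Elements known from stress and secretory promoters were searched in the same way. ACGTG was within 50 bp of the summit at Sec61alpha, in 6.27% of all regions and in 11.1% of windows of the same length at start sites. CCAAT, a part of the ER stress element of mammals, was within 50 bp of the summit at Xbp1. It was in 19.03% of all regions and 17.1% of windows at start sites. No match within 50 bp of these summits was found for CCACG, another part of the ER stress element. None was found for TGACGT, the core of the CRE-like element of Xbp1 and ATF6. GATGCAAT and TGATGAAA, of the type known for mammalian ATF4, also had none. Within 150 bp of the summit, ACGTG was found at Xbp1, Ire1 and Sec61alpha (21.7% of all regions, 25.2% of windows of that length at start sites). CCAAT was found at Xbp1, Ire1 and TRAM (44.7% and 46.4%). CCACG was found there at Ire1 and TRAM (22.1% and 27.4%), and the other 3 had no match at that distance either. At Ire1 the CCACG overlaps the ACGTG, so these matches are not separate sites. The letters GTCACACT, picked after the sequences had been seen, stood within 150 bp of the summit at TRAM, Xbp1 and Ire1 and in 2.53% of all regions (4.72% of regions with a summit within 500 bp of a start site). They lay 10 bp upstream of the summit in TRAM, and at a larger distance, inside the same window, in Xbp1 and Ire1. Because the motif was chosen on these genes, its count among them supports nothing by itself. In Xbp1 and Ire1 it is part of the longer GGTCACACT, the central letters of a known core promoter element of Drosophila.

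**Figure D1:**
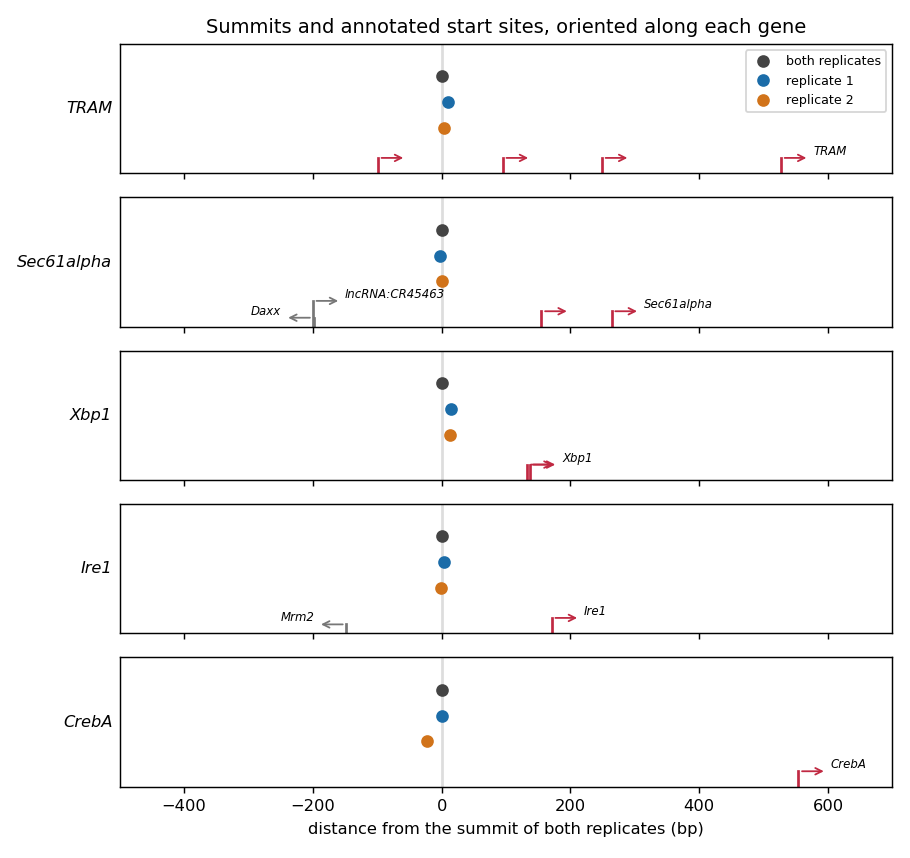
Summits at TRAM, Sec61alpha, Xbp1, Ire1 and CrebA in the list of both replicates (grey), in replicate 1 (blue) and in replicate 2 (orange), as distance in bp from the summit of both replicates, oriented along each gene. Arrows are annotated start sites of the gene (red) and of other genes (grey) and point in the direction of transcription; the replicates' summits lie 2 to 23 bp apart, and in all 5 genes at least 1 start site of the gene lies downstream of the summit.

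Among the translocon genes, TRAM had the strongest region of all 10 genes. TRAM encodes a membrane protein that, in mammals, helps nascent chains enter the membrane. The gene (FBgn0040340) lies on X from 935232 to 937822, plus strand. In the replicates' own thresholded lists its signal was 157 in replicate 1 (rank 87 of 1176 regions) and 182 in replicate 2 (rank 60 of 1114). The summits of the replicates were 7 bp apart, and both were listed. The signal is the authors' own value per peak, its normalization is not stated, and all ranks are by signal within a list. For that reason the values of the replicates are set side by side without a mean or SD. In the conservative list the signal was 340 (rank 66 of 1739), on X from 935257 to 935414. The region was 158 bp long, against 304 bp for those of Sec61alpha, Xbp1 and Ire1.

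TRAM has 4 annotated start sites, and the summit lay 99 bp downstream of the first and 95 bp upstream of the second, in sequence annotated as 5' UTR, and is therefore not printed. The summit also lay in the span of CG32815, an overlapping gene on the same strand whose nearest start site was 2205 bp away. The strongest candidate of TRAM exceeded that of 99.4% of all protein-coding genes in the ranked list of both replicates. The overlapping CG32815 has the same summit and so the same signal. Leaving it aside, the protein-coding genes next to TRAM in the order of the strongest listed signal were CG13501 directly above (343) and Ptpmeg2, a protein tyrosine phosphatase gene, directly below (339). In the replicates CG13501 had 161 and 181 and Ptpmeg2 had 159 and 181, so TRAM was the lowest of the 3 in replicate 1 and the highest in replicate 2. The order of these 3 genes is not settled by the replicates.

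Sec61alpha, the pore-forming subunit of the channel, was bound in both replicates. The gene (FBgn0086357) lies on 2L from 6477182 to 6480575, minus strand. Its signal was 57.8 in replicate 1 (rank 623 of 1176) and 60.1 in replicate 2 (rank 588 of 1114), with summits 3 bp apart. The gene thus stood near the middle of both lists. In the conservative list the signal was 122 (rank 543 of 1739). The summit lay 155 bp upstream of the nearest Sec61alpha start site, between it and the start of the divergent gene Daxx, a chromatin-associated histone chaperone gene, which was 199 bp from the summit. The starts of the 2 genes are 354 bp apart, and a noncoding RNA gene, lncRNA:CR45463, spans the summit. The data do not say to which of the 3 genes the region belongs.

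Sec61beta, a small subunit of the same channel (FBgn0010638, 2R from 14618771 to 14619681), had no candidate of any strength in any of the 4 ranked lists. These are the lists of all candidate regions before the threshold, 106765 in replicate 1 and 113898 in replicate 2 on the main chromosomes. The interval without a candidate around the gene was 18.2 kb in replicate 1 and 21.7 kb in replicate 2. Sec61alpha and Sec61beta thus differed in the thresholded lists, with Sec61alpha bound in each of them and Sec61beta in none. The Sec61beta window was 1911 bp and that of Sec61alpha 4394 bp. The difference between them was the same with the window of 500 bp around start sites.

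Of the stress sensors, Ire1 was bound in both lists made from the 2 replicates together and in replicate 1's list, but not in that of replicate 2, and PEK was bound in none of the 4. Ire1 (FBgn0261984, 3R from 19853908 to 19861291, minus strand) had a signal of 42.0 in replicate 1, where it was listed at rank 1013 of 1176. Among all candidates of replicate 1, Ire1 had rank 1130 of 106765. In replicate 2 its strongest candidate had a signal of 26.7 and rank 3994 of 113898, and it was not listed. The summits were 5 bp apart, so the place was the same in both replicates, while the rank among all candidates was weaker in replicate 2. The authors gave each candidate an IDR, the irreproducible discovery rate, which is low for peaks that rank alike in repeated sets. Its −log10 at Ire1 was 2.27 in replicate 1 and 0.465 in replicate 2, where at least 2 was needed for listing. In the conservative list Ire1 had a signal of 66.7 (rank 1359 of 1739) and a −log10 IDR of 2.21, the member just inside the threshold.

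The Ire1 summit lay 171 bp upstream of the only annotated Ire1 start site and 148 bp upstream of that of the divergent gene Mrm2, an RNA methyltransferase gene. The starts are 319 bp apart. As at Sec61alpha, the summit lay between 2 divergent starts, and the data do not say to which gene it belongs.

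PEK, the fly PERK kinase (FBgn0037327, 3R from 5458563 to 5464753), had weak candidates. Its strongest had a signal of 13.0 in replicate 1 and 14.6 in replicate 2, both in a coding exon, 3341 and 3459 bp downstream of the nearest start site. In the ranked list of both replicates the strongest lay in an intron, 284 bp downstream of the nearest start site. Its signal was 31.6, at rank 18333 of 139701. That value exceeded the strongest candidate of 52.8% of all protein-coding genes, whereas the replicates' own values exceeded 34.0% in replicate 1 and 32.2% in replicate 2. PEK thus stood near the middle of all genes in the list of both replicates and lower in each replicate. At the intronic place replicate 1 had a candidate of 12.5 and replicate 2 one of 9.50, with summits 32 bp apart. With the window of 500 bp around start sites, the share of genes exceeded in the list of both replicates was 77.6%.

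Of the stress factors, Xbp1 was bound in both replicates. The gene (FBgn0021872) lies on 2R from 21143545 to 21145750, plus strand. Its signal was 39.5 in replicate 1 (rank 1069 of 1176) and 44.2 in replicate 2 (rank 955 of 1114), with summits 2 bp apart. It was thus listed in both, in the weaker part of each list. Its −log10 IDR was 2.39 in replicate 1 and 2.29 in replicate 2, also not far above the 2 needed for listing. In the conservative list the signal was 86.2 (rank 956 of 1739), close to the median of 91.6. The summit lay 133 bp upstream of the nearest Xbp1 start site and in the window of no other gene, the only 1 of the 4 bound members of which this held. Within 50 bp of the summit the GC content was 17.8%, and 1.32% of the regions, whose median was 31.7%, were lower. At the other bound members it was 32.7% (Sec61alpha), 34.7% (Ire1) and 40.6% (TRAM).

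crc and Atf6 were bound in no list. Atf6 (FBgn0033010, 2R from 5144733 to 5154756) had candidates in replicate 1 alone, the strongest an intronic one with a signal of 16.9 and rank 19557 of 106765. In replicate 2 it had none within an interval of 47.7 kb. The replicates therefore differed in whether Atf6 had a candidate at all.

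crc had no candidate in any of the 4 ranked lists, and it lies beside dimm itself. The gene (FBgn0000370, 2L from 21310866 to 21319527) ends 12229 bp before the start of dimm (21331756), the gene whose tagged form was pulled down. The interval without a candidate around crc was 104 kb in replicate 1 and 94.4 kb in replicate 2, and it holds 8 protein-coding genes in replicate 1 and 7 in replicate 2. The median distance between neighbouring candidates was 783 bp in replicate 1 and 766 bp in replicate 2, and 16 of 106758 and 18 of 113891 such distances were longer than the one around crc. Inside the window of dimm there were candidates again, 2 in replicate 1 and 7 in replicate 2. The last of them lay inside dimm, 22.7 kb from the start of crc in replicate 1 and 23.9 kb in replicate 2. Beyond them the next candidates were at 57.3 kb and 59.8 kb, so the rest of dimm lay in a further interval without a candidate. Whether the tagged insertion or the processing bears on this interval was not tested.

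**Figure D2:**
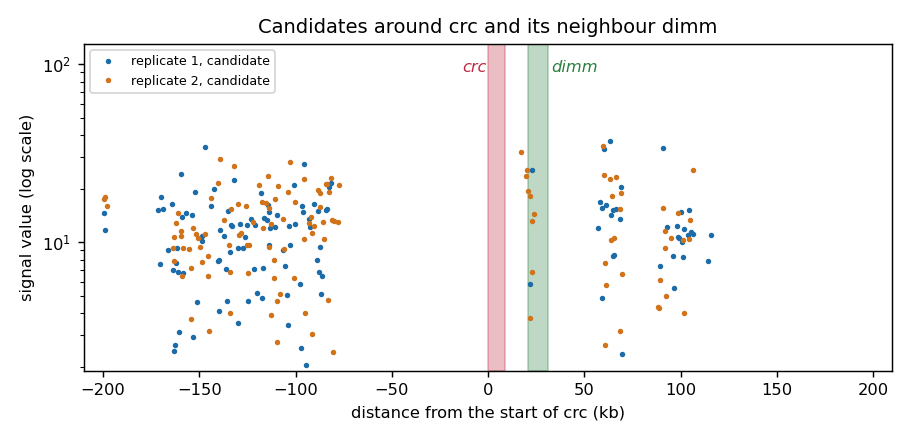
Candidate regions within 200 kb of crc in the ranked lists of replicate 1 (blue) and replicate 2 (orange), plotted as the authors' signal value (log axis) against distance in kb from the start of crc. The red band is crc and the green band is dimm. An interval of 104 kb (replicate 1) or 94.4 kb (replicate 2) without a candidate holds crc. Candidates resume at dimm or shortly before it, but stop again inside dimm, at 22.7 kb (replicate 1) and 23.9 kb (replicate 2). The next ones are at 57.3 kb and 59.8 kb, and another stretch without candidates fills the right end of the plot.

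CrebA was not bound, but it was the strongest of the unlisted members, and the replicates differed there. The gene (FBgn0004396) lies on 3L from 15535395 to 15553214, plus strand. In the ranked list of both replicates its strongest candidate had a signal of 48.0 (rank 3316 of 139701) and lay 554 bp upstream of the start site, just outside the 500 bp used for promoters. Its −log10 IDR there was 0.329, well below the 2 needed for listing. In the ranked list behind the list not marked conservative it was 1.44, also below 2. At that place the signal was 33.6 in replicate 2 (rank 1803 of 113898) and 13.8 in replicate 1 (rank 34762 of 106765), with summits 23 bp apart. Replicate 1's own strongest candidate at CrebA was an intronic one of 18.7, 3194 bp downstream of the start site. The ranks of the replicates were thus further apart at CrebA than at TRAM, Sec61alpha, Xbp1 or Ire1. CrebA also has the longest window of the 10 genes, 18820 bp against a median of 3164.5 bp over all protein-coding genes.

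Hsc70-3 (FBgn0001218, X from 11801696 to 11807117), the gene of the main ER chaperone, was bound in no list. It had no candidate in replicate 1, within an interval of 29.9 kb, and in replicate 2 its strongest candidate was in a coding exon, with a signal of 16.7 and rank 26095 of 113898. That value exceeded the strongest candidate of 42.0% of all protein-coding genes in replicate 2. Hsc70-3 therefore had candidates in 1 replicate alone, and none of them was listed.

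**Figure D3:**
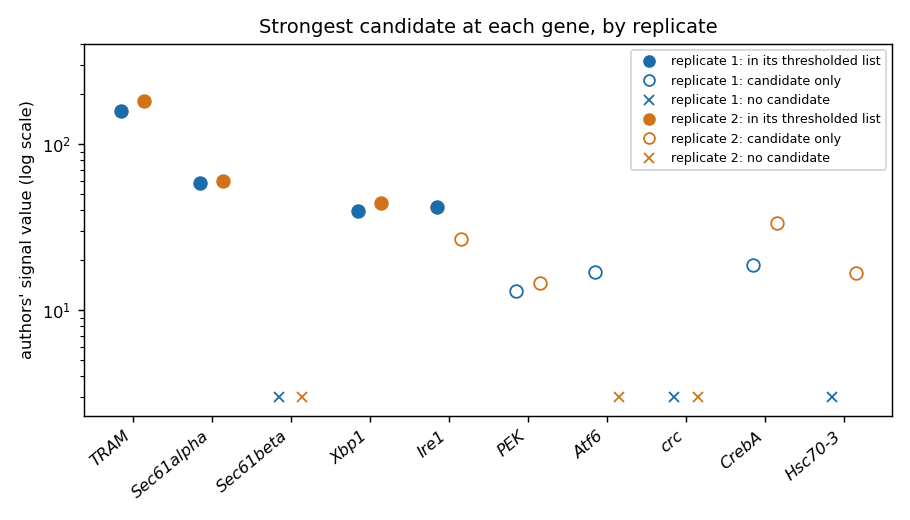
The authors' signal value (log axis) of the strongest candidate at each of the 10 genes, in replicate 1 (blue) and replicate 2 (orange). Filled points were in that replicate's thresholded list, open points were candidates only, and crosses at the foot of the plot mark genes with no candidate; TRAM is highest in both replicates (157 and 182), and Sec61beta and crc have a cross in both.

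Across the 10 genes the replicates' own lists gave 4 bound in replicate 1, where 8.21% of all protein-coding genes were bound, and 3 in replicate 2, where 7.8% were. TRAM, Sec61alpha and Xbp1 were bound in both, as were 6.16% of all protein-coding genes. The order of strength was TRAM above Sec61alpha in both replicates. Below them Ire1 (42.0) and Xbp1 (39.5) were close in replicate 1, where CrebA had 18.7. In replicate 2 Xbp1 (44.2) was above CrebA (33.6) and Ire1 (26.7). Xbp1 was therefore above CrebA in both replicates. The place of Ire1 relative to Xbp1 and CrebA is not settled by these replicates. The strongest candidates of Sec61alpha, Xbp1 and Ire1 in the ranked list of both replicates exceeded those of 95.5%, 92.8% and 90.2% of all protein-coding genes, and that of CrebA 83.004%.

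The 10 genes were also often without any candidate. In the ranked list of both replicates behind the conservative list, 84.6% of all protein-coding genes had at least 1 candidate, and 6 of the 10 members did. The count was also 6 behind the list not marked conservative (85.5% of all protein-coding genes), and 7 in replicate 1 (82.9%) and in replicate 2 (87.5%). In the ranked lists of both replicates together, crc, Atf6, Sec61beta and Hsc70-3 had none, although 3 of these 4 windows are longer than the median window of all protein-coding genes (3164.5 bp). The shortest of the 4 intervals without a candidate was 19.8 kb, and 7.37% of all protein-coding genes lay in one at least that long. That length was taken from these 4 members, so all of them reach it by construction, and nothing is read from their count. Of the 2 members with no candidate in any of the 4 ranked lists, crc and Sec61beta, the background was 7.82% of all protein-coding genes. Weakness of the signal and loss of a candidate during processing cannot be told apart in these files.

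**Figure D4:**
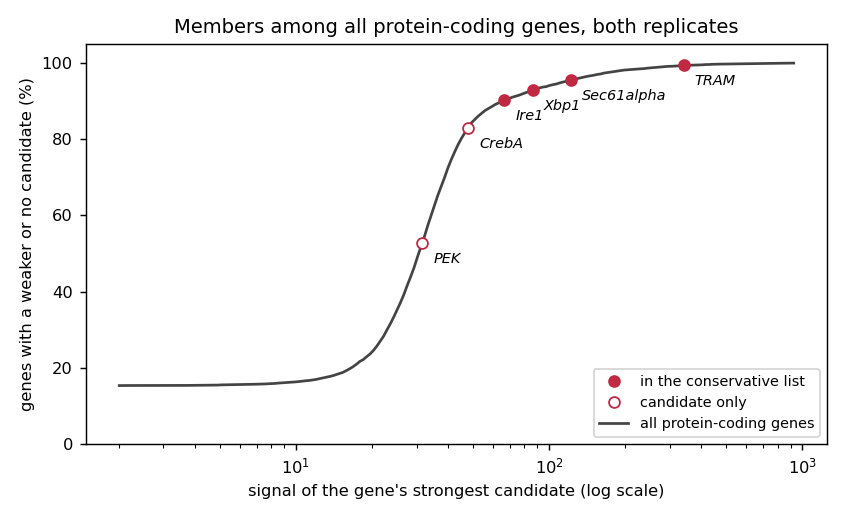
Share of all 13968 protein-coding genes with a weaker or no candidate (vertical axis, %) against the signal of the gene's strongest candidate (log axis), in the ranked list of both replicates. Red points are members in the conservative list and open points are members with a candidate only; the 4 bound members lie above 90% of genes, CrebA at 83.004% and PEK at 52.8%, and the 4 members without a candidate are not drawn.

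The wider secretory pathway was described with a list of 73 genes fixed by role, which includes the 10 members. In the conservative list 14 of the 73 were bound (19.2%), and 10 of the 63 that are not members (15.9%), beside 11.2% of all protein-coding genes. All 14 summits lay within 500 bp of a start site of the gene, and 11 of the 14 lay in the window of at least 1 other annotated gene as well, counting a transposon at Cnx99A. The median signal of the 14 was 95.95, and that of all bound protein-coding genes was 104. Their strength varied widely, from TRAM at rank 66, alphaCOP at 95, Trp1 at 130 and Stt3A at 186 of 1739 to deltaCOP at 1310 and Ire1 at 1359.

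Among genes of translocation and early modification, the translocon had 3 of 8 genes bound, beside 11.2% of all protein-coding genes. All 3 were also in both replicates' own lists, beside 6.16%. However, 3 of the 8 genes are members, chosen with earlier results of these data known, among them TRAM and Sec61alpha described above. The 1 bound translocon gene that is not a member was Trp1, the fly Sec62 of post-translational translocation. Trp1 had 137 in replicate 1, 134 in replicate 2 and 256 in the conservative list. Of the 5 glycosylation genes, Stt3A, a catalytic subunit of the oligosaccharyltransferase, had 92.9 and 119 in the replicates (211 in the conservative list). Dad1, a small subunit of that enzyme, had 42.1 and 57.5 (97.9 in the conservative list). Both replicates bound both genes. Of the 9 genes of the signal recognition particle and its receptor only Srp14 was bound (76.6), and of the 4 signal peptidase genes only Spase22-23 (78.7), each in the conservative list and in neither replicate's own.

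Among genes of folding and degradation, Cnx99A, the membrane chaperone calnexin, was the 1 of 13 chaperone and folding genes bound in the conservative list (94.02). In the replicates it had 41.4 and 56.1. Gp93, the ER form of Hsp90, was bound in replicate 1 (37.9) but not in replicate 2. Of the 8 genes of ER-associated degradation, Hrd3, a partner of the Hrd1 ubiquitin ligase, had 80.3 in replicate 1, 45.8 in replicate 2 and 134 in the conservative list. Herp, an ER membrane protein of the same pathway in mammals, had 47.7, 43.6 and 89.1. Both were bound in both replicates.

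Among genes of transport out of the ER, 0 of the 9 COPII genes were bound in the conservative list, beside 11.2% of all protein-coding genes, and with 9 genes nothing is read from that count. Tango1, a cargo receptor gene at ER exit sites, was bound in replicate 1 alone (38.8). Of the 9 genes of COPI and retrieval, alphaCOP, a coat subunit, had 157 in replicate 1, 139 in replicate 2 and 292 in the conservative list. It was second in signal to TRAM among the 73 genes. deltaCOP, another subunit, had 68.6 in the conservative list and was in neither replicate's own list, nor in the list not marked conservative. Over all roles replicate 1 alone gave 13 bound genes of the 73 (17.8%, beside 8.21% of all protein-coding genes). Replicate 2 alone gave 10 (13.7%, beside 7.8%), and those 10 were bound in both, as were 6.16% of all protein-coding genes. Of the 63 genes that are not members, 9 were bound in replicate 1 (14.3%) and 7 in replicate 2 (11.1%).

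**Figure D5:**
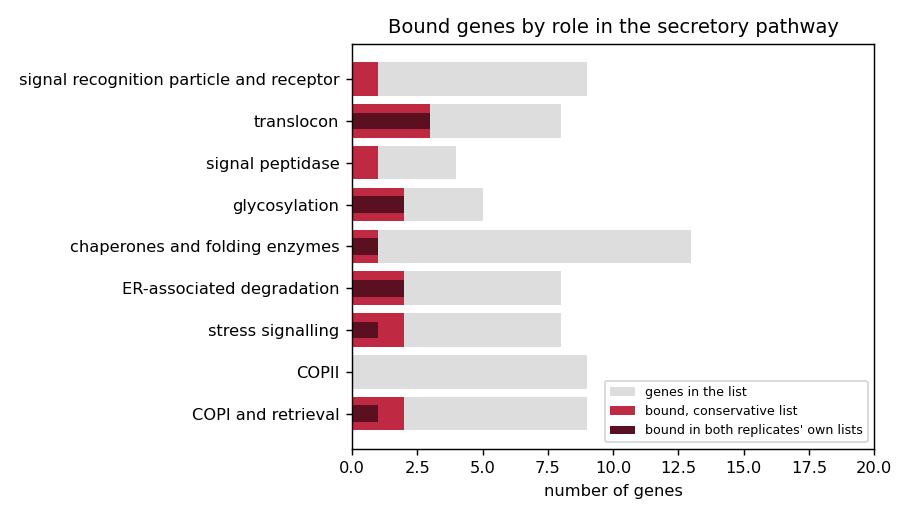
Number of genes in each role of the 73-gene list (pale bars, from 0), number bound in the conservative list (red) and number bound in both replicates' own lists (dark). The translocon has 3 of 8 genes bound in both replicates, of which TRAM and Sec61alpha are members, and COPII has 0 of 9 bound in the conservative list.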

How the data were processed

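The authors deposited 8 peak lists on dm6, per the labels and the text files beside them: for each replicate and for both together, ranked candidates and thresholded peaks. Neither aligner nor peak caller is named in them (not given in the sources used here). Column 7 is the signal value the authors deposited, with no stated normalization, and the ranked lists hold the −log10 of the IDR as deposited. Every thresholded peak had a −log10 IDR of at least 2. The conservative list holds 1807 peaks, of which 1770 lay on 2L, 2R, 3L, 3R, 4, X and Y. Peaks overlapping by at least 1 bp were merged, keeping the strongest summit, which left 1739. Ranked candidates were not merged. Genes came from Ensembl release 115, and bases from the RefSeq Release 6 genome, in which 99.9% of 16237 annotated start codons read ATG. Python 3.11.15 with numpy 2.4.6 and pandas 2.3.3 was used. Of 78 symbols in the pathway list 3 had no single match and 2 repeated a gene, and 5 were matched by synonym. The text names all 10 members, every bound gene of the pathway list, the genes sharing a member's summit and the neighbours of the strongest member. Gp93 and Tango1 were named after their values had been seen. The members and lists were chosen with earlier results of these data known. The design has no contrast, so no test was run. Counting was tested on simulated data with 200 planted summits, all recovered. Alternatives changed the gene window, the list, the threshold, merging and the order of candidates.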

Additional observations from a re-analysis of the deposited data

How the results depend on the processing

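The 4 bound members stayed the same genes in 6 of the alternatives: replicate 2 left out, 2 kb upstream in place of 1 kb, 500 bp around start sites, any overlapping base in place of the summit, no merging, and the list not marked conservative. With the span alone 1 member (TRAM) was left, against 5.78% of all protein-coding genes, and 4 of the 73 pathway genes, because 3 of the 4 summits lie upstream of the gene. The count bound in both replicates was then 1 in place of 3. With the stronger 50% of regions 2 members (TRAM and Sec61alpha) and 8 pathway genes were left, beside 6.39% of all protein-coding genes. Leaving out a replicate gave 3 to 4 members and 10 to 13 pathway genes (beside 7.8% and 8.21% of all protein-coding genes), and without replicate 1 Ire1 was lost. The pathway count was 14 within 500 bp of start sites (beside 6.92%) and in the list not marked conservative (11.6%), 17 with any overlapping base (11.5%) and 18 with 2 kb upstream (12.4%). In the list not marked conservative Gp93 was bound and deltaCOP was not, so its 14 genes were not the same set. Between 5 and 7 members had a candidate in the alternatives, against 6. Within 150 bp of the summit in place of 50 bp, added after the data had been seen, 2 of the 4 bound members had an E-box, against 0. No paired analysis was possible because the series has 1 group. Depth is unknown, so no limit from counting could be given.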

Other observations

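The letters GTCACACT, chosen on the bound members, were also counted within 150 bp of the summits of the other bound genes of the pathway list. Of the 10 that are not members, Cnx99A and deltaCOP had them, beside 4.72% of the regions with a summit within 500 bp of a start site and 5.43% of windows of that length at annotated start sites. With 2 genes this is a description only. Within 50 bp of the summit none of these 10 had them.

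Of the 63 pathway genes that are not members, 12 had no candidate in the ranked list of both replicates (19.05%), beside 15.4% of all protein-coding genes. In replicate 1's ranked list 17 had none (26.98%), beside 17.1%, and in replicate 2's 8 (12.7%), beside 12.5%.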
